A study of Mus musculus with 8 samples.

Results

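The cell cycle and DNA replication genes described here are 40 genes of the division machinery, measured in a mouse pre-iPSC clone with and without vitamin C. They were chosen by symbol from a list of 41, and a gene with several probe sets was read from the brightest of them by its mean. Of the genes matched, 23 were grouped as genes of G1, the G1/S transition or replication, and 17 as genes of G2 and mitosis. They are 40 of the 19938 genes measured by a probe set with 1 symbol, and Ccnb1 was not analysed here. Pre-iPSCs have begun reprogramming from a somatic state but have not become induced pluripotent stem cells. All values come from 1 clone, which the labels name MaF pre-iPSC9P2 and which was kept on feeders in mESC medium. Cells of the vitamin C group had 50 µg/ml of vitamin C from day 2 onwards, and the untreated group had the same medium without it. Cells of each group were lysed on days 3, 4, 5 and 6, after trypsin and removal of feeder cells, which gave 8 arrays, 4 with vitamin C and 4 untreated, and 1 for each treatment and day.

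In G1, D-type cyclins activate the kinases Cdk4 and Cdk6, which relieve the E2F factors of their inhibitor. E2F then switches on cyclin E, the Mcm helicase, its loaders and the enzymes that make deoxynucleotides, so that cells enter S phase. Genes of G2 and mitosis are switched on later, by complexes that hold Mybl2 and Foxm1 and act at CHR elements and CCAAT boxes of promoters. Embryonic stem cells are known for a short G1 phase.

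Promoter sequences were available for 31 of the 40 members and are RefSeq's of assembly GRCm38.p6, from 250 bases before to 50 bases after a gene's start. These 31 members had 33 promoters, since Ccnd3 and Mcm7 had 2 each. Each motif was searched on both strands. The E2F motif was spelled TTTCCCGC, TTTCGCGC, TTTGCCGC or TTTGGCGC. The CCAAT box has the letters of its name. The CHR (cell cycle genes homology region) was spelled TTTGAA. Another spelling of it that was counted, TTCGAA, reads alike on both strands. A stretch of DNA can match the E2F motif on both strands at once. The E2F motif was found in 7 of 20 G1/S and replication promoters (35%) and in 1 of 13 G2/M promoters (7.69%), beside 2.26% of all 32851 promoters in the table. The CCAAT box was found in 12 of 13 G2/M promoters (92.3%) and 11 of 20 G1/S promoters (55%), beside 37.4% of all. The CHR was found in 11 of 13 G2/M promoters (84.6%) and 2 of 20 G1/S promoters (10%), beside 19.2% of all. These are matches of letters in a window and not sites of binding.

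Promoters of 5 members are shown, 5′ to 3′ on the strand of the gene, to let the 2 classes be compared: Rrm2, which had the steepest slope of all members, Mcm5 and Mcm6 with the E2F motif, Cdk1, the G2/M member that fell, and Top2a, which holds the most CHR matches. They lie at chr12:24708004-24708303 (plus strand), chr8:75109259-75109558 (plus), chr1:128359656-128359955 (minus), chr10:69352863-69353162 (minus) and chr11:99024140-99024439 (minus). Capitals mark letters of a motif on either strand.
Rrm2: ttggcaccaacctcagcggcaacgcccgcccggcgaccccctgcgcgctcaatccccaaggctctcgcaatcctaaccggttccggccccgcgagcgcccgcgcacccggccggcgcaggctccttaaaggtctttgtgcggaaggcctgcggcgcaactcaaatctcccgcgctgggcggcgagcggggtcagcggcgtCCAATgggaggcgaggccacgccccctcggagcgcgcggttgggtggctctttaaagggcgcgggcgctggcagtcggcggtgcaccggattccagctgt
Mcm5: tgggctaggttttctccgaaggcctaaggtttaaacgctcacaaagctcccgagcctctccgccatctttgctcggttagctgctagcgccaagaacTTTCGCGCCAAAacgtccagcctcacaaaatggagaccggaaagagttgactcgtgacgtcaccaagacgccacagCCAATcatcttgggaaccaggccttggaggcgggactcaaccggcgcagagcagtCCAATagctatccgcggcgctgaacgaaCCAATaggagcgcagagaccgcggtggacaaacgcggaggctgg
Mcm6: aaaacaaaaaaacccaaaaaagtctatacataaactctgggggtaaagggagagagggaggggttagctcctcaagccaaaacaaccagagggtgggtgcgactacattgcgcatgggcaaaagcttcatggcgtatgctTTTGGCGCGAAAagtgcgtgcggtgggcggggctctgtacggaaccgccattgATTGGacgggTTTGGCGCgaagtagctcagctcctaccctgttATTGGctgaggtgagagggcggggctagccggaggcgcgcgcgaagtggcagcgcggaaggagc
Cdk1: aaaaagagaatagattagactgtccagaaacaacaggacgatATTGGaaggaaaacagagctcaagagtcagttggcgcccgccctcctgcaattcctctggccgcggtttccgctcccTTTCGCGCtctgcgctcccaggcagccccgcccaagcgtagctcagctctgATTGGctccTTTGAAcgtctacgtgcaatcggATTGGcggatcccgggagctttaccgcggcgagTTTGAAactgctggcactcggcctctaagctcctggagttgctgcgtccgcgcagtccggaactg
Top2a: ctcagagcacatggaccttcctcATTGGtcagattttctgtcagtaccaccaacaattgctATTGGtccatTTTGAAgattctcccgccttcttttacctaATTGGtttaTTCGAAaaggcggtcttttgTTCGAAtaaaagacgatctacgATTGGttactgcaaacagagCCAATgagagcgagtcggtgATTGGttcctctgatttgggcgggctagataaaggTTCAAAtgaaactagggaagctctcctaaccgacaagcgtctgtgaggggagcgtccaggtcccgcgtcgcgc
Mcm6 has 3 E2F matches, Mcm5 has 2 and Cdk1 has 1, while no E2F match was found in this window of Rrm2. Cdk1 has 3 CCAAT boxes and 2 CHR matches, and Top2a has 6 CCAAT boxes and 4 CHR matches, with TTCGAA counted once for both strands. Of these 5 genes, Rrm2, Mcm5 and Cdk1 fell over the days, as given below, and Mcm6 and Top2a passed no test.

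All values are log2 expression per array. The arrays were alike, with medians from 4.33 to 4.40 and correlations from 0.977 to 0.994, and their small number is what limits the precision. Tests are limma's moderated tests, adjusted by Benjamini and Hochberg over all 19938 genes, with a threshold of 0.05 on the adjusted p. Errors are moderated standard errors unless named as SD. Nothing in the labels states separate cultures for the days, so p-values speak of the spread among these arrays alone, which may be technical. A difference on a single day has no replicate. Of 12 markers of pluripotent cells, 9 lay above the array median in all 8 arrays, and of 8 markers of blood cells 7 lay below it in all 8. The other blood cell marker, Cd68, lay above it in all 8. Cd68 had 5.95 on day 3 and 8.10 on day 6 with vitamin C, and 6.00 and 7.36 untreated. Of 6 endothelial markers, 2 lay below the median in all 8 arrays and 0 above it in all 8. Markers of feeder cells or fibroblasts were present after the removal of feeder cells: 26 of 28 lay above the median in all arrays, and only Fap lay below it in all. RNA of remaining feeder cells and expression by the clone itself cannot be told apart here. The summed level of these markers on the linear scale ran from 6323 to 7686 with vitamin C and from 7195 to 12240 untreated. In the slope over both treatments 20 of the 28 fell, with a median of -0.30 per day, and the median vitamin C effect on them was -0.38. Of the 28, 2 passed the vitamin C test, both lower (7.14%, beside 0.752% of all genes), and 26 effects lay below 0. These markers therefore fell with day, and most lay lower with vitamin C. Of the 40 members, 7 passed the test of the mean slope and 1 that of vitamin C, as given below. The markers' part in the members' results was not tested. In 1 alternative the marker mean replaced day in the fit. Since that mean moved with both day and treatment, the fit cannot separate the markers' part from either. In bulk samples, fewer cells of a type and less RNA per cell cannot be told apart.

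Some members, mostly of the G1/S and replication genes, fell over the days, and most members were lowest on day 6. In the slope averaged over both treatments, 7 of 40 members fell and none rose, a share of 17.5%. Of all genes, 12.9% passed that test, 6.35% falling and 6.51% rising. They were Rrm2, Ccnd1, Ccnd2, Ccne1, Ccne2 and Mcm5 of the G1/S and replication genes and Cdk1 of the G2/M genes. The slope lay below 0 in 37 of 40 members, and its median was -0.11 per day over the members against -0.01 over all genes. Day 6 was lower than day 3 in both treatments in 34 of 40 members, beside 34.1% of all genes, and day 6 was the lowest day of both treatments in 30 of 40, beside 15.4% of all genes. Without the day 6 arrays 0 of 40 members passed limma's test (6 with an unadjusted p under 0.05), 29 slopes lay below 0 and the median slope was -0.06. With any other day left out, 5 to 6 members passed.

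The median deviation of the 23 G1/S and replication genes from their own means was 0.14, 0.13, -0.06 and -0.30 with vitamin C on days 3 to 6, and 0.13, 0.11, 0.06 and -0.20 untreated. For the 17 G2/M genes it was 0.06, 0.03, -0.05 and -0.25 with vitamin C and 0.13, 0.09, 0.13 and -0.18 untreated. Both phases were lowest on day 6 in either treatment, and the untreated arrays of days 3 to 5 lay close together. By slope, 6 of 23 G1/S and replication genes fell with a median of -0.13. Of 17 G2/M genes 1 fell (5.88%, beside 6.35% of all genes), with a median of -0.10. These counts depended on the setting. Without genes below the median level, Birc5, Ccna2, Foxm1, Kif20a and Plk1 of the G2/M genes fell too, as did 1652 of 9969 genes. Cdc6, Cdt1, Mcm3, Mcm4, Mcm7, Pcna and Rrm1 of the G1/S and replication genes then fell as well. Day 6 was lowest in both treatments in 14 of 17 G2/M and 16 of 23 G1/S and replication genes, beside 15.4% of all. The difference between the phases was not tested.

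**Figure D1:**
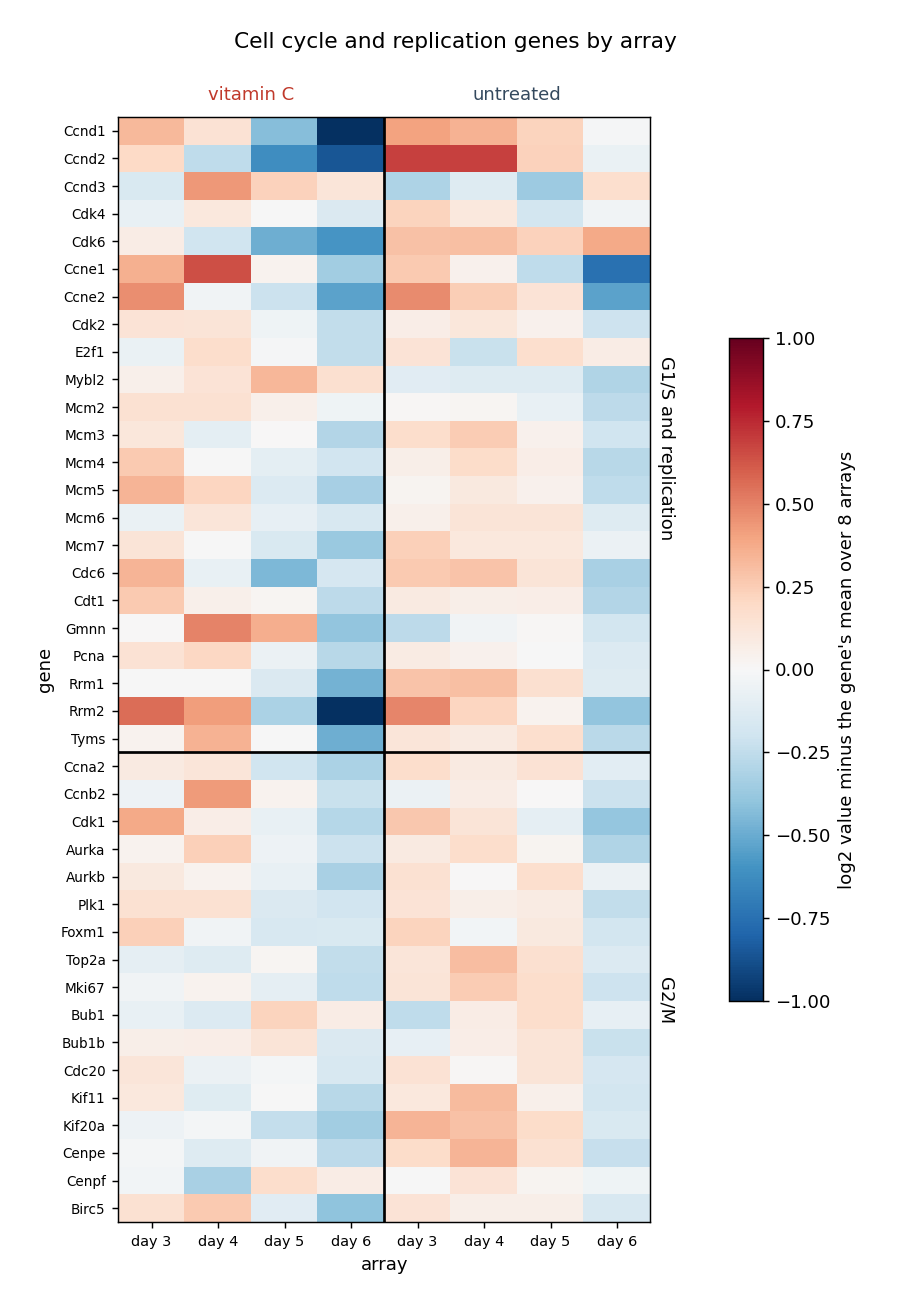
Each cell is a member's log2 value on 1 array minus the gene's mean over all 8 arrays, with vitamin C arrays on the left, untreated arrays on the right and G1/S and replication genes above G2/M genes. The day 6 columns are blue for most genes in both treatments, darkest for Ccnd1 (8.58) and Rrm2 (8.53) with vitamin C.

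With vitamin C, 7 of 40 members fell over the days (17.5%) and none rose. Of all genes, 8.64% passed that test, 3.39% falling and 5.25% rising. They were 6 of 23 G1/S and replication genes, namely Rrm2, Ccnd1, Ccnd2, Ccne2, Cdk6 and Mcm5, and 1 of 17 G2/M genes, Cdk1. The median slope was -0.13 per day over the members, -0.16 over the G1/S and replication genes, -0.10 over the G2/M genes and -0.02 over all genes. In untreated cells limma called 0 of 40 members (8 with an unadjusted p under 0.05), beside 1.75% of all genes, of which 0.968% fell and 0.782% rose. The untreated medians were -0.10 over the members, -0.11 over the G1/S and replication genes, -0.09 over the G2/M genes and 0.00 over all genes. Slopes lay below 0 in 36 of 40 members with vitamin C and in 35 of 40 untreated. The count of members that fell with vitamin C was 3 without the day 3 arrays, 4 without day 4, 2 without day 5 and 0 without day 6. In untreated cells 5 members passed when genes below the median level were left out, namely Ccnd2, Ccne1, Ccne2, Cdk1 and Rrm2.

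The test of the difference between the 2 slopes called 0 of 40 members (3 with an unadjusted p under 0.05), beside 0.0652% of all genes. Passing in 1 treatment and not in the other is therefore not a difference shown between them. The members with the smallest p were Ccnd1 (-0.32 ± 0.091 per day, adjusted p = 0.230 by limma), Cdk6 (-0.25 ± 0.083, adjusted p = 0.306) and Rrm2 (-0.26 ± 0.101, adjusted p = 0.376). Of the G2/M genes, Birc5 had -0.11 ± 0.093, Aurkb -0.09 ± 0.087 and Cenpf 0.10 ± 0.105 per day, and none of them passed.

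In the test of the vitamin C effect over all days 1 member passed, Ccnd2, which was lower with vitamin C. That is 1 of 40 members (2.5%) beside 0.752% of all genes, of which 0.216% were lower and 0.537% higher. The median effect was -0.06 over the members and over each phase, and -0.01 over all genes. With the feeder or fibroblast marker mean in place of day, the members' median effect changed sign to 0.09, and effects lay below 0 in 15 of 40 members, against 27 of 40 with day in the fit. Unadjusted p was under 0.05 in 8 of 40 members. Vitamin C arrays were lower than untreated arrays on each of the 4 days in 13 of 40 members, beside 11.1% of all genes. They were higher on each day in 4 of 40, namely Ccne1, Mybl2, Mcm2 and Bub1b, beside 9.29% of all genes. The groups of 4 arrays did not overlap in 2 of 40 members, Cdk6 and Mybl2, beside 4.71% of all genes. No member differed at least 2-fold on any day (0 of 40, beside 3.47% of all genes).

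The regulators of G1 held the member that passed the test of the vitamin C effect, and the largest differences of all members. Ccnd2, a D-type cyclin on chromosome 6, had log2 values of 9.48, 9.02, 8.66 and 8.42 with vitamin C on days 3 to 6, against 9.96, 9.96, 9.51 and 9.21 in untreated cells. Vitamin C arrays were lower on every day, and only the day 3 vitamin C value lay within the untreated range. Ccnd2 averaged 8.90 ± 0.46 with vitamin C and 9.66 ± 0.37 untreated (SD over 4 days), and the effect was -0.76 ± 0.114 (adjusted p = 0.0255 by limma), a level of 58.9% of untreated. Ccnd2 also fell over the days with vitamin C (-0.35 ± 0.064 per day, adjusted p = 0.00917), a call kept without day 4 and lost without day 3, 5 or 6. In untreated cells its slope was -0.27 ± 0.064 (adjusted p = 0.0669). Its day 6 level was 48.0% of day 3 with vitamin C and 59.5% untreated. The vitamin C effect on Ccnd2 missed the threshold without the arrays of day 4 (adjusted p = 0.183), day 5 (0.164) or day 6 (0.0595), and without day in the fit (0.380). With day replaced by the feeder or fibroblast marker mean it was -0.36 ± 0.154 (adjusted p = 0.444).

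Ccnd1, the D-type cyclin on chromosome 7, had 9.90, 9.72, 9.15 and 8.58 with vitamin C on days 3 to 6, against 9.98, 9.93, 9.80 and 9.57 in untreated cells. The treatments lay close on day 3 and apart on days 5 and 6, and they overlapped. Its slope with vitamin C was -0.45 ± 0.064 per day (adjusted p = 0.00287 by limma) and untreated -0.13 ± 0.064 (adjusted p = 0.325). By day 6 its level was 39.9% of day 3 with vitamin C and 75.5% untreated. Its effect over all days was -0.48 ± 0.156 (adjusted p = 0.231), and -0.14 with the marker mean in place of day.

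Cdk6, a kinase partner of D-type cyclins, had 8.96, 8.69, 8.40 and 8.30 with vitamin C on days 3 to 6, against 9.18, 9.19, 9.12 and 9.27 in untreated cells. All vitamin C arrays lay below all untreated arrays, and the untreated arrays stayed within a narrow band. Its effect was -0.60 ± 0.135 (adjusted p = 0.0920 by limma), a level of 66.0% of untreated. It passed without the day 3 arrays (-0.73, adjusted p = 0.0448), with day as a number (adjusted p = 0.0426) and with limma's trend and robust options (0.0191). With vitamin C Cdk6 fell by 0.23 ± 0.059 per day (adjusted p = 0.0383), which no longer passed when any 1 day was left out, and untreated its slope was 0.02.

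The other members of this group did not follow. Ccnd3, the D-type cyclin with a positive slope, had 6.48, 7.06, 6.86 and 6.75 with vitamin C and 6.32, 6.50, 6.27 and 6.80 untreated on days 3 to 6, and its effect was 0.32 ± 0.134 (adjusted p = 0.370). Cdk4, the other kinase partner, stayed between 9.06 and 9.31 with vitamin C and between 9.02 and 9.43 untreated. The 5 regulators thus held values in both directions, with a median effect of -0.48. Their median deviation was 0.07, 0.10, -0.42 and -0.59 with vitamin C and 0.29, 0.30, 0.22 and -0.01 untreated on days 3 to 6.

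**Figure D2:**
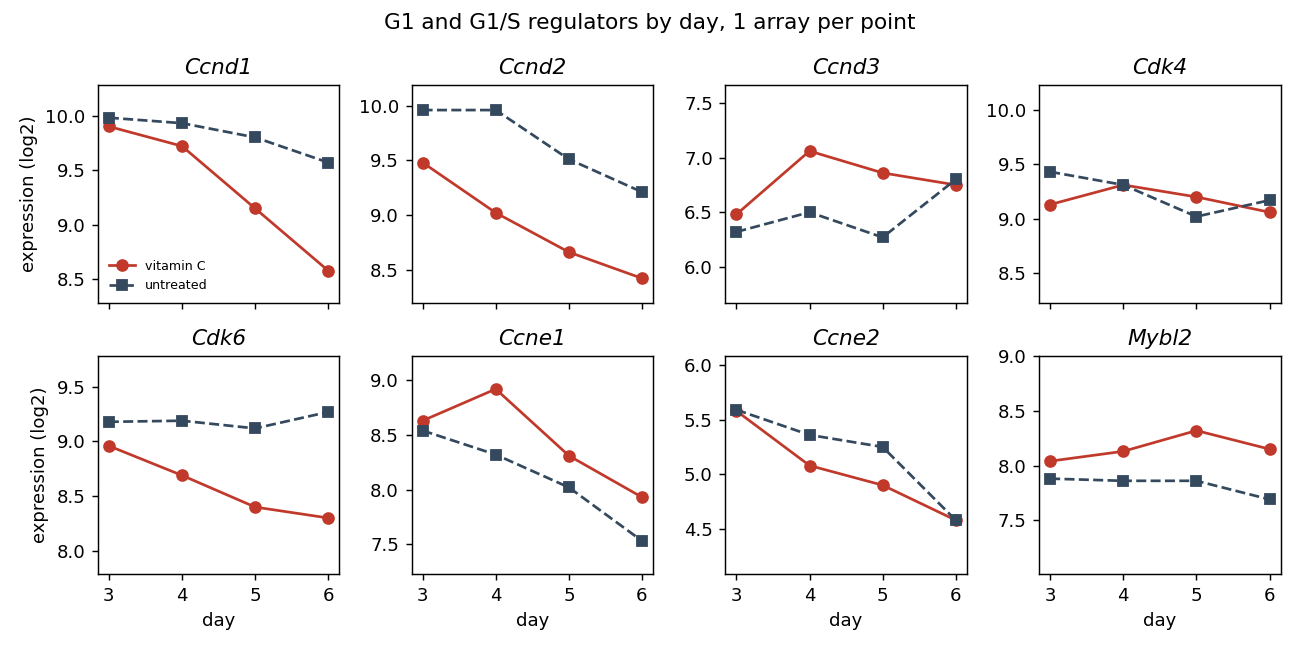
Log2 expression of 8 G1 and G1/S regulators by day, 1 array per point, with vitamin C as red circles and untreated as dark squares, all panels spanning the same log2 range. Ccnd1, Ccnd2 and Cdk6 end lower with vitamin C on day 6, at 8.58, 8.42 and 8.30, than untreated, at 9.57, 9.21 and 9.27, while Ccne1 and Mybl2 are higher with vitamin C on every day.

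Among the 5 genes listed as activators of the G1/S transition, both E-type cyclins fell over the days. None of the 5 passed the test of the vitamin C effect. Ccne1, the cyclin that activates Cdk2, had 8.63, 8.92, 8.31 and 7.93 with vitamin C on days 3 to 6, against 8.54, 8.32, 8.02 and 7.53 in untreated cells. Each day's vitamin C array was higher, while the ranges overlapped. The effect was 0.34 ± 0.116 (adjusted p = 0.249 by limma), and over both treatments Ccne1 fell by 0.30 ± 0.058 per day (adjusted p = 0.00855).

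Ccne2, the second E-type cyclin, had 5.58, 5.08, 4.90 and 4.58 with vitamin C and 5.59, 5.36, 5.25 and 4.58 untreated on days 3 to 6. The treatments met on days 3 and 6. Its slope was -0.32 ± 0.069 per day with vitamin C (adjusted p = 0.0202 by limma) and -0.31 ± 0.069 untreated (adjusted p = 0.0509), and the call with vitamin C was kept only without day 4 when days were left out. Its day 6 level was 50.2% of day 3 with vitamin C and 49.7% untreated.

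Mybl2 was listed with the G1/S activators, though it is a transcription factor of the complex that switches on G2/M genes. It had 8.04, 8.13, 8.32 and 8.15 with vitamin C, against 7.88, 7.86, 7.86 and 7.69 in untreated cells. All vitamin C arrays lay above all untreated arrays. The effect was 0.34 ± 0.107 (adjusted p = 0.216 by limma), a level of 126.5% of untreated, and it ranged from 0.30 to 0.40 in the 12 alternatives without passing in any. Cdk2, the kinase of cyclins E and A, averaged 8.12 ± 0.18 with vitamin C and 8.13 ± 0.14 untreated (SD over 4 days). E2f1, the factor that switches on S-phase genes, averaged 5.89 ± 0.17 with vitamin C and 5.96 ± 0.18 untreated. The 95% interval of the vitamin C effect was -0.24 to 0.22 for Cdk2 and -0.38 to 0.23 for E2f1.

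Of the 9 genes that license origins, 1 fell over the days, and all 9 mean slopes lay between -0.19 and -0.05 per day. Mcm5, a subunit of the hexameric Mcm helicase that is loaded at origins, had 8.40, 8.28, 7.93 and 7.73 with vitamin C on days 3 to 6, against 8.09, 8.16, 8.11 and 7.81 in untreated cells. With vitamin C it was highest on day 3 and lowest on day 6, and untreated only day 6 was low. Its slope was -0.23 ± 0.063 per day with vitamin C (adjusted p = 0.0454 by limma), and -0.16 ± 0.044 over both treatments (adjusted p = 0.0386), and both calls ended when any 1 day was left out. Mcm5's day 6 level was 63.0% of day 3 with vitamin C and 82.3% untreated. For the other helicase subunits the shares were 87.7% for Mcm2, 75.2% for Mcm3, 73.0% for Mcm4, 94.1% for Mcm6 and 70.8% for Mcm7 with vitamin C, and 83.2% for Mcm2, 77.0% for Mcm3, 79.1% for Mcm4, 88.3% for Mcm6 and 81.2% for Mcm7 untreated. None of these 5 passed a test as reported, though the mean slopes of Mcm3, Mcm4 and Mcm7 passed without genes below the median level. None of the 6 subunits passed the test of vitamin C.

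Cdc6 and Cdt1 load the helicase, and Gmnn (geminin) holds Cdt1 back. Cdc6 had 6.28, 5.86, 5.49 and 5.77 with vitamin C and 6.20, 6.22, 6.07 and 5.61 untreated on days 3 to 6, with a mean slope of -0.19 ± 0.058 per day (adjusted p = 0.0592 by limma). Cdt1 had a mean slope of -0.14 ± 0.044 (adjusted p = 0.0702). Gmnn was uneven, with 5.04, 5.53, 5.40 and 4.64 with vitamin C and 4.77, 5.00, 5.05 and 4.85 untreated, so both treatments peaked on middle days and its slopes did not pass.

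Nucleotide supply held the steepest slope of all 40 members. Rrm2, the subunit of ribonucleotide reductase whose level follows S phase, had 10.09, 9.95, 9.22 and 8.53 with vitamin C on days 3 to 6, against 10.02, 9.75, 9.57 and 9.14 in untreated cells. It dropped day by day in both treatments and lay lower with vitamin C on days 5 and 6 but not on days 3 and 4. The slope was -0.54 ± 0.072 per day with vitamin C (adjusted p = 0.00206 by limma) and -0.28 ± 0.072 untreated (adjusted p = 0.0814). Over both treatments it was -0.41 ± 0.051 (adjusted p = 0.000916). The day 6 level was 33.8% of day 3 with vitamin C and 54.2% untreated.

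Rrm1, the large subunit, had 9.72, 9.72, 9.58 and 9.25 with vitamin C, against 10.01, 10.02, 9.88 and 9.59 in untreated cells. The vitamin C array was lower by nearly the same amount each day, with differences of -0.29, -0.31, -0.31 and -0.34. Its effect was -0.31 ± 0.099 (adjusted p = 0.221 by limma), and with limma's trend and robust options Rrm1 passed. Both subunits of the enzyme were thus lower with vitamin C on day 6, while on day 3 only Rrm1 was. Tyms (thymidylate synthase, which makes the thymidine nucleotide) averaged 6.88 ± 0.35 with vitamin C and 6.94 ± 0.20 untreated (SD over 4 days). Pcna, the sliding clamp of the replication fork, averaged 9.76 ± 0.22 with vitamin C and 9.76 ± 0.10 untreated, and its second probe set was lowest on day 6 in both treatments as well.

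**Figure D3:**
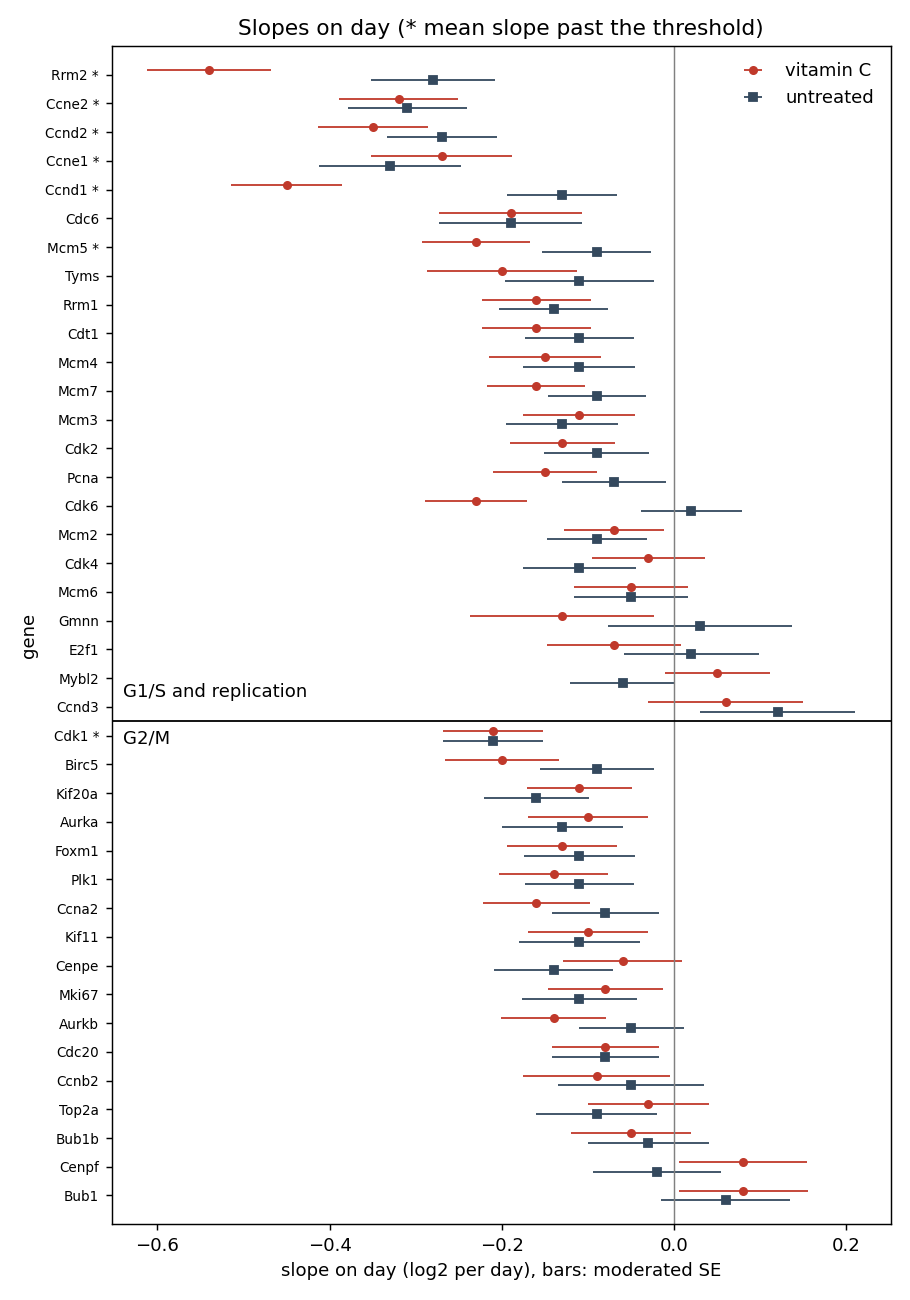
Slope of log2 expression on day for each of the 40 members, with vitamin C (red circles) above untreated (dark squares) and bars of 1 moderated standard error, G1/S and replication genes in the upper block and G2/M genes in the lower. Most points lie left of 0, from -0.54 for Rrm2 with vitamin C, and an asterisk marks the 7 members whose mean slope passed the threshold.

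Of the 7 G2/M cyclins, kinases and transcription factor, only Cdk1 passed a test as reported. Without genes below the median level, the mean slopes of Ccna2, Foxm1 and Plk1 passed as well. Cdk1, the kinase that drives entry into mitosis, had 7.38, 7.07, 6.93 and 6.72 with vitamin C on days 3 to 6, against 7.27, 7.13, 6.91 and 6.62 in untreated cells. It was lower on each later day in both treatments, and the 2 courses nearly coincided, with daily differences between -0.06 and 0.12. Its slope was -0.21 ± 0.058 per day with vitamin C (adjusted p = 0.0475 by limma) and -0.21 ± 0.058 untreated (adjusted p = 0.0972), and over both -0.21 ± 0.041 (adjusted p = 0.00809). The call with vitamin C ended when any 1 day was left out, and the call over both treatments ended without day 3 or day 6. The day 6 level was 63.2% of day 3 with vitamin C and 64.1% untreated.

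Ccna2, the cyclin of S and G2 phase, had 8.55, 8.58, 8.26 and 8.14 with vitamin C and 8.63, 8.55, 8.60 and 8.35 untreated on days 3 to 6. Aurkb, a kinase of chromosome attachment, had 7.82, 7.76, 7.65 and 7.40 with vitamin C and 7.88, 7.73, 7.89 and 7.67 untreated. Neither gene passed as reported, and in both genes the treatments overlapped. Plk1 and Aurka, kinases of the mitotic spindle, had day 6 levels of 78.2% and 84.4% of day 3 with vitamin C and of 76.9% and 76.3% untreated. Foxm1, a factor that switches on G2/M genes, was at 76.2% of day 3 with vitamin C and 75.1% untreated, and Ccnb2, a B-type cyclin, at 88.7% with vitamin C and 89.8% untreated. All 7 mean slopes of this group lay below 0, between -0.21 and -0.07 per day.

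Among the 10 genes of the spindle, its checkpoint and chromosome structure, none passed any test as reported. The mean slopes of Kif20a and Birc5 each passed in 3 of 9 alternatives, and Birc5's slope with vitamin C passed in 1 of 9. The lowest effects of vitamin C were those of Kif20a, Top2a, Cenpe and Mki67. Kif20a, a kinesin of the late spindle, had 7.49, 7.52, 7.30 and 7.19 with vitamin C on days 3 to 6, against 7.88, 7.83, 7.72 and 7.39 in untreated cells. It was lower with vitamin C on each day, with an effect of -0.33 ± 0.102 (adjusted p = 0.209 by limma), and the groups overlapped. Top2a, the topoisomerase that untangles chromosomes, had 9.05, 9.01, 9.16 and 8.89 with vitamin C and 9.26, 9.45, 9.30 and 9.00 untreated, with an effect of -0.22 ± 0.108 (adjusted p = 0.452). Cenpe, a kinetochore kinesin, had 7.05, 6.94, 7.03 and 6.81 with vitamin C and 7.25, 7.41, 7.22 and 6.84 untreated, with an effect of -0.22 ± 0.111 (adjusted p = 0.468). Mki67, the common marker of cycling cells, averaged 8.26 ± 0.12 with vitamin C and 8.44 ± 0.20 untreated (SD over 4 days), with an effect of -0.17 ± 0.102 (adjusted p = 0.550). With the feeder or fibroblast marker mean in place of day the effect was -0.13 for Kif20a, -0.10 for Top2a and -0.04 for Cenpe. For Top2a it was also -0.10 with both of its probe sets averaged. Its second probe set had a mean of 2.07, below the lowest array median of 4.33, so that average says little about the effect. In each of these 4 genes the untreated arrays of days 3 to 5 lay above all vitamin C arrays, and the untreated day 6 array lay within their range.

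Birc5 (survivin), which acts with Aurkb, had 6.40, 6.51, 6.14 and 5.85 with vitamin C and 6.39, 6.31, 6.31 and 6.09 untreated, with a slope of -0.20 ± 0.066 per day with vitamin C (adjusted p = 0.0859 by limma). Cenpf, a kinetochore protein, had 6.96, 6.66, 7.16 and 7.06 with vitamin C and 6.98, 7.12, 7.01 and 6.94 untreated, with no course in time. Bub1 and Bub1b, kinases of the spindle checkpoint, behaved differently at the end of the course: the day 6 level of Bub1 was 110.7% of day 3 with vitamin C and 112.4% untreated, and that of Bub1b was 87.0% with vitamin C and 90.9% untreated. Cdc20, which activates the anaphase ligase, was at 82.3% of day 3 with vitamin C and 80.3% untreated, and Kif11, the kinesin that separates spindle poles, at 76.4% with vitamin C and 81.7% untreated.

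The fall over the days was also seen in genes of the same pathways outside the list. Of 48 other replication genes, 13 fell in the slope over both treatments (27.1%) and none rose, with a median of -0.11 per day. Of all genes, 6.35% fell in that test. E2f8, an inhibitory E2F factor, fell by 0.30 ± 0.048 per day (adjusted p = 0.00322 by limma), E2f7, its relative, by 0.21 ± 0.042 (adjusted p = 0.00918), Cdc25a, the phosphatase that activates Cdk2, by 0.22 ± 0.043 (adjusted p = 0.0103), and Orc1, a subunit of the origin recognition complex, by 0.21 ± 0.044 (adjusted p = 0.0109). E2f8 had 7.09, 6.94, 6.71 and 6.16 with vitamin C and 6.77, 6.67, 6.33 and 5.88 untreated on days 3 to 6, so it was lowest on day 6 in both treatments. With vitamin C 4 of the 48 fell (8.33%, beside 3.39% of all genes), namely E2f8, Rpa2, E2f7 and E2f2. Untreated 1 of 48 fell (2.08%, beside 0.968% of all genes), namely Orc1 (-0.30 ± 0.062, adjusted p = 0.0423 by limma).

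Of 57 other mitosis genes, 12 fell in the slope over both treatments (21.1%, beside 6.35% of all genes) and none rose. Their median slope was -0.12 per day. Cenpi, a protein of the centromere, fell by 0.28 ± 0.048 per day (adjusted p = 0.00458 by limma), Bub3, of the spindle checkpoint, by 0.19 ± 0.046 (adjusted p = 0.0217), and Smc2, a condensin subunit, by 0.18 ± 0.042 (adjusted p = 0.0226). Cenpa, the histone variant of centromeres, fell by 0.17 ± 0.044 per day (adjusted p = 0.0292). With vitamin C 3 of the 57 fell (Cenpa, Cenpi and Kif14), a share of 5.26%, near the 3.39% of all genes. Untreated none passed (11 with an unadjusted p under 0.05). Limma's test of the vitamin C effect over all days called 0 of the 48 and 0 of the 57, beside 0.752% of all genes. In each list 3 had an unadjusted p under 0.05. The median deviation on day 6 was -0.25 with vitamin C and -0.23 untreated for the other replication genes, and -0.30 with vitamin C and -0.25 untreated for the other mitosis genes.

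Brakes of the cell cycle moved in both directions. Of 19 measured, 5 rose (26.3%, beside 6.51% of all genes) and 2 fell (10.5%, beside 6.35%) in the slope over both treatments. The median slope was 0.00. Cdkn1c (p57), a Cdk inhibitor, had 5.01, 5.43, 5.97 and 6.81 with vitamin C on days 3 to 6, against 5.27, 5.67, 5.67 and 5.76 in untreated cells. It climbed each day with vitamin C and ended above all untreated arrays. Its slope was 0.59 ± 0.068 per day with vitamin C (adjusted p = 0.00108 by limma) and 0.15 ± 0.068 untreated (adjusted p = 0.306), and the difference of the slopes was 0.45 ± 0.097 (adjusted p = 0.145).

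Cdkn1b (p27), another Cdk inhibitor, had 6.16, 6.19, 6.49 and 6.83 with vitamin C and 5.98, 6.34, 6.28 and 7.07 untreated, and rose by 0.28 ± 0.055 per day over both treatments (adjusted p = 0.0101 by limma). The antiproliferative genes Btg1 (0.25 ± 0.055 per day, adjusted p = 0.0171), Btg2 (0.22 ± 0.049, adjusted p = 0.0154) and Tob1 (0.16 per day) also rose. Cdkn2c (p18), an inhibitor of Cdk4 and Cdk6, fell by 0.31 ± 0.065 per day over both treatments (adjusted p = 0.0122), at a low level. Its values ran from 2.98 to 4.21 with vitamin C and from 3.04 to 4.06 untreated, all below the lowest array median of 4.33. E2f6, a repressive E2F factor, fell by 0.14. Cdkn2a and Cdkn2b, the neighbouring inhibitors known as a barrier to reprogramming, passed no test: Cdkn2a averaged 6.10 ± 0.15 with vitamin C and 6.17 ± 0.18 untreated, and Cdkn2b averaged 6.54 ± 0.08 with vitamin C and 6.47 ± 0.14 untreated (SD over 4 days). Cdkn1a was not analysed here.

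**Figure D4:**
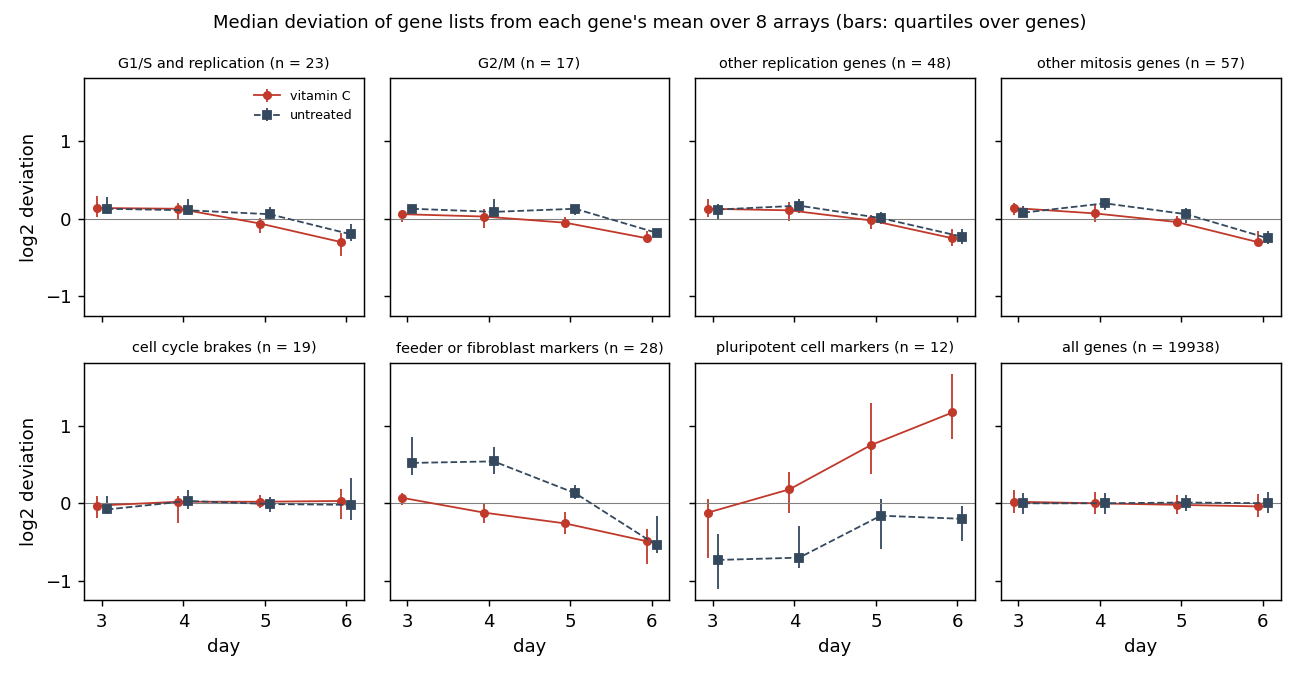
Median deviation of each gene list from the genes' own means over 8 arrays, by day, with bars for the quartiles over genes, vitamin C as red circles and untreated as dark squares. The 4 lists of replication and mitosis genes end between -0.30 and -0.18 on day 6 in both treatments, brakes stay near 0, and the feeder or fibroblast markers end at -0.49 with vitamin C and -0.54 untreated while the pluripotent markers end at 1.17 with vitamin C and -0.20 untreated.

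The marker lists moved alongside. The median deviation of the feeder or fibroblast markers was 0.07, -0.12, -0.26 and -0.49 with vitamin C and 0.52, 0.54, 0.13 and -0.54 untreated on days 3 to 6. That of the 12 pluripotent markers was -0.12, 0.18, 0.75 and 1.17 with vitamin C and -0.73, -0.70, -0.16 and -0.20 untreated. The members' median deviation was 0.10, 0.07, -0.05 and -0.26 with vitamin C and 0.13, 0.11, 0.09 and -0.18 untreated.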

How the data were processed

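Expression was measured on 8 Affymetrix whole-transcript arrays, each from 100 ng of total RNA. The authors deposited log2 values, made with RMA, per the submitters' processing notes, which also name Partek; no version or array build is given in those notes. The log2 scale was inferred from the largest value, 13.8, above the natural log of a 16-bit maximum (11.1) and below its log2 (16.0). Of 28853 probe sets, 21789 had 1 gene symbol in the platform annotation, 1621 had several and 5443 were unnamed. This left 19938 genes, each by its probe set with the highest mean. Tests used limma 3.58.1 in R 4.3.3, two-sided, and tables and plots used Python 3.11.15, pandas 2.3.3 and matplotlib 3.10.9. For the vitamin C effect, treatment and day (4 levels) were fitted together, so that both arrays of a day form a pair. The labels' day is the basis of the pairing. Deviations of a day's 2 arrays from the mean of their treatment had correlations of 0.371, 0.180, 0.125 and 0.475 (days 3 to 6). Slopes were fitted for both treatments in a single model without pairing. The scripts were tested on simulated data with the spread of the real genes. Of simulated vitamin C effects, 70.1% were found at 1 log2 and 2.99% at 0.5 log2. For changes of 1 log2 over days 3 to 6, 46.3% were found by the mean slope and 13.4% by the slope with vitamin C. The untreated slope found 22.4% and the difference of slopes 0%. A missed test therefore does not show that a gene was unchanged. The members and lists were chosen with earlier results of these data known. Values on every array are given for members past the threshold and for the 3 members of each phase with the smallest p in each comparison, and for some further members. Genes outside the members were named by smallest p, up to 4 for each list, and further ones where a small count is spelled out. Alternatives were a repeat of quantile normalization, centring of arrays, leaving out genes below the median level, averaging probe sets, limma's trend and robust options, other uses of day, and leaving out each day.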

Additional observations from a re-analysis of the deposited data

Results flagged for a closer look

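The daily difference between vitamin C and untreated arrays was checked for single days far from the other 3 in each of 40 members, and 2 members had such a day. Ccnb2, a B-type cyclin, was 0.35 higher with vitamin C on day 4, with differences between -0.01 and 0.03 on the other days. Foxm1, a factor that switches on G2/M genes, differed by -0.26 on day 5, with differences between 0.00 and 0.03 on the other days. Chance gives such a day in about 1 in 20 groups, which over 40 members comes to about this number. Each rests on 1 pair of arrays and its cause was not tested.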

How the results depend on the processing

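Of 348 alternatives for 36 results on single members, 291 kept their direction and side of the threshold, 36 lost the threshold, 21 gained it and 0 changed sign. The 36 results were picked by their p in these same data, which favours a kept direction. A result that missed the threshold in both settings counts as kept. Directions of the other members did change: effects below 0 numbered 27 of 40 as reported and 15 with the feeder or fibroblast marker mean, and mean slopes below 0 numbered 37 as reported and 29 without day 6. Members past the threshold numbered 1 for the vitamin C effect, against 3 with limma's trend and robust options, 2 with day as a number, 0 with the feeder or fibroblast marker mean in place of day, 0 with no replicate block (day left out) and 0 to 2 without 1 day. For the slope with vitamin C they numbered 7, against 12 with trend and robust options and 0 to 4 without 1 day. For the untreated slope they numbered 0, against 1 after quantile normalization or centring, and 5 after leaving out genes below the median level or with trend and robust options, and 0 without any 1 day. For the mean slope they numbered 7, against 13 after centring, 19 without genes below the median level, 20 with trend and robust options and 0 to 6 without 1 day. Over all genes the vitamin C effect counted 150, against 255 without genes below the median level, 376 with trend and robust options, 17 with no replicate block, 291 with day as a number, 12 with the marker mean, and 3 to 286 without 1 day. The difference of slopes counted 13 (members 0 throughout), against 21 after quantile normalization, 28 without genes below the median level, 80 with trend and robust options, 20 with the replicate block and 0 without any 1 day. The slope with vitamin C counted 1722 (167 to 1549 without 1 day), the untreated slope 349 (670 without genes below the median level, 782 with trend and robust options, 1 to 252 without 1 day), and the mean slope 2564 (215 to 2197 without 1 day). Leaving out genes below the median level tests fewer genes (9969, all 40 members among them), and leaving out a day leaves fewer arrays. Otherwise the cause was not tested. Centring turned the split of higher and lower calls from 156 and 193 to 130 and 255 for the untreated slope, and from 1297 and 1267 to 1095 and 1715 for the mean slope.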
